A study of Mus musculus with 4 samples.

Results

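The genes described here are 42 interferon-stimulated genes and interferon receptors, followed through single-cell RNA profiles of mouse liver cells labelled as biliary epithelial cells. The cells were fixed whole and barcoded by rounds of splitting and pooling (Parse Evercode), and how they were isolated is not given in the sources used here. The genes were taken by name from the deposited gene table, which holds all 42 among its 50766 genes, and were divided by role into 4 receptor chains, 27 targets of the type I kind and 11 of the gamma kind. All 4 mice carried the genotype Sox9EGFP, in which a fluorescent protein reports Sox9, a transcription factor of biliary cells. Mice of the sham group (n = 2) had a sham operation and those of the BDL group (n = 2) had the bile duct tied off (bile duct ligation), and cells of both groups were taken 7 days later. Each library was taken as 1 mouse from its own name in the labels, and every comparison below sets 2 libraries against 2. The labels give no sex, age or batch, and replicate numbers are names that pair nothing across the groups.

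Interferons are signalling proteins that cells release on sensing viral or other foreign nucleic acid, and that immune cells release on activation. Type I interferons bind the receptor chains Ifnar1 and Ifnar2 and act through a complex with Stat2 and Irf9, which binds the interferon-stimulated response element, a doublet of the bases GAAA in target promoters. Interferon gamma binds Ifngr1 and Ifngr2 and acts on the gamma-activated sequence, and then through Irf1. The division into type I and gamma kinds is one of emphasis, since many of these genes answer to both interferons.

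The promoters of 4 targets whose levels were lower in the BDL libraries of both cell classes tested below are printed to show what these elements look like. Each stretch runs 120 bases, from 160 to 41 bases before the start of the gene, on the gene's own strand, from RefSeq (GRCm38.p6). Capitals mark matches to GAAA, 2 unspecified bases and GAAA on either strand, or to TTCNNNGAA, which reads alike on both strands.
Isg15, chr4:156200859-156200978, minus strand: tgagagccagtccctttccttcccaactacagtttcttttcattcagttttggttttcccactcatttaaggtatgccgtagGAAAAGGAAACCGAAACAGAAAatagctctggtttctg
Ifit3, chr19:34583369-34583488, plus strand: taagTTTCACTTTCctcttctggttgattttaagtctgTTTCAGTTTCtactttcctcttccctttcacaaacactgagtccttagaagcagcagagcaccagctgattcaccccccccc
Gbp7, chr3:142530176-142530295, plus strand: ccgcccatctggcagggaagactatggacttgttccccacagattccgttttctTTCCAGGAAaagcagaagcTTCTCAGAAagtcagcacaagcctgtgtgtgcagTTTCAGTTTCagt
Irf1, chr11:53769854-53769973, plus strand: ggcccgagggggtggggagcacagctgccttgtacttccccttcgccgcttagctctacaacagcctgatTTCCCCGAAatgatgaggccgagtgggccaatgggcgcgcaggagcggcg
The Isg15 stretch holds 3 overlapping response-element matches that begin 78, 72 and 66 bases before the start. Ifit3 has 2, at 156 and 122 bases, and both read on the opposite strand. Gbp7 has 1 of them at 53 bases beside 2 gamma-activated matches at 106 and 87 bases, and Irf1 has a gamma-activated match alone, at 90 bases. Promoter windows of 300 bases (250 before to 50 after the start) were found for 34 of the 42 genes. Zbp1, Usp18, Oas2, Mx1, Mx2, Parp14, Parp9 and Gbp4 were not matched. The response element was found for 11 of 20 type I targets, 5 of 10 gamma targets and 0 of 4 receptors, and stood in 3.44% of all 32851 windows. The gamma-activated sequence was found for 4 of 20, 4 of 10 and 2 of 4, and stood in 8.30% of all windows. A match is a run of letters and shows no binding.

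The libraries held 2089 to 4065 cells and 10024577 to 33809650 transcripts counted by unique molecular identifier (UMI). A median cell had 3260 and 2610 UMIs in sham against 7058 and 7793 in BDL, so depth moved with the group. No cell barcode was shared between libraries (0). The cell tables carry a group name that contradicts the label of sham replicate 2, which they call BDL, and of BDL replicate 2, which they call sham. Groups follow the labels here. The effect of leaving out each library is given below, but this does not test an exchange of 2 libraries. Biliary cells with the same label fell mostly into the same clusters. The largest biliary cluster held 935 and 699 cells from sham replicates 1 and 2, against 2 and 4 from BDL replicates 1 and 2. Another held 4 and 0 against 455 and 1079. The libraries thus grouped as labelled in these clusters, and the cause of the contradicting names was not tested. BDL replicate 2 also stood apart in Xist, the transcript that silences an X chromosome in female cells: 1952 CPM (a gene's share of the class's UMIs in a library, scaled to a common total, here without TMM) in its biliary cells against 7.99 to 10.1 in the others. Of 12181 cells used, 2615, 2592, 1972 and 3839 (sham replicates 1 and 2, BDL replicates 1 and 2, the order of all value series below) were biliary-epithelial-like (BEC-like), with all 12 biliary markers detected, and 188, 415, 71 and 132 were mesenchymal-like. The other classes held 0 to 122 cells per library, among them a cluster of 10, 6, 2 and 0 cells that was left unnamed, and were not tested.

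In BEC-like cells all 4 receptor chains were higher after ligation, while 10 of 26 type I targets and 2 of 10 gamma targets were lower and 0 were higher. Genes were called at a Benjamini-Hochberg adjusted p under 0.05 in the quasi-likelihood test of edgeR on UMIs summed per library, and 14.2% of all 16055 genes tested were called higher and 12.9% lower. Mx1 and Gbp5 were too low to test. At an unadjusted p under 0.05 the targets counted 16 lower and 3 higher, and 6540 of the 16055 genes passed that limit in either direction. DESeq2 called 12 targets lower and 0 higher, and of all genes 1602 lower and 1969 higher. The median log2 fold change was -0.51 over the type I targets and -0.43 over the gamma targets, against -0.02 over all genes.

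Ifnar1, the chain of the type I receptor that recruits the kinase Tyk2, stood at 41.5, 39.1, 84.3 and 88.6 CPM (scaled by TMM, as are the values of genes in the BEC-like and mesenchymal-like sums below, while sums over lists and values of chosen cells are not). Both BDL libraries were above both sham libraries, and the log2 fold change was 1.10 ± 0.11 (SE; adjusted p = 0.0013). Ifnar2, the chain that carries Stat2, was at 38.5, 47.4, 71.2 and 65.2 CPM, a rise of 0.67 ± 0.14 on the log2 scale (adjusted p = 0.016). The 2 chains of the gamma receptor were higher too, and the chains were not tested against each other. Ifngr1, which binds the ligand, went from 75.8 and 71.7 to 159.7 and 163 CPM (1.13 ± 0.11, adjusted p = 0.0010). Ifngr2, its signalling partner, went from 29.8 and 41.8 to 82.3 and 92.8 CPM (1.30 ± 0.18, adjusted p = 0.0035). None of the 4 overlapped between the groups. Ifnar1, Ifngr1 and Ifngr2 kept their call in all 16 alternatives, and Ifnar2 lost it without sham replicate 1 (adjusted p = 0.12) and in the cells of sublibraries 1 to 4.

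The receptors' ligands were almost absent from the counts. BEC-like cells made up 81.6% to 94.7% of each library, beside 1 cluster of 50 immune cells, so this does not speak for the liver as a whole. Of 12 interferon genes, 9 had no UMI in any of the 12181 cells, Ifnb1 among them, and the other 3 had 12 UMIs together of 69649314. Ifng had 2 of these, 1 of them in mesenchymal-like cells of sham replicate 1. A count of 0 in BEC-like cells allows a level of up to 0.308, 0.356, 0.205 and 0.0931 CPM (3 counts), so lower levels were not detectable at this depth.

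The factors that carry the type I signal were lower in the BDL libraries. Stat2 stood at 48.3 and 51.0 CPM in sham and 21.3 and 23.5 in BDL, a log2 fold change of -1.15 ± 0.13 (adjusted p = 0.0017). Irf9, the DNA-binding part of the same complex, stood at 38.6 and 46.5 against 21.5 and 21.5 CPM (-0.98 ± 0.14, adjusted p = 0.0044). Both genes were thus lower after ligation, with both BDL libraries below both sham libraries. Irf7, which amplifies type I interferon production, was low throughout at 5.17 to 7.60 CPM and was not called (-0.31 ± 0.23, adjusted p = 0.36).

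The sensors of foreign nucleic acid divided. Ifih1, a sensor of long double-stranded RNA, was at 65.6 and 73.2 against 50.1 and 43.4 CPM (-0.57 ± 0.13, adjusted p = 0.021). Rigi, which senses RNA ends, Zbp1, a sensor of Z-form nucleic acid, and Eif2ak2, the kinase that halts translation on binding double-stranded RNA, were not called. Their log2 fold changes were 0.03 ± 0.15, -0.04 ± 0.22 and -0.13 ± 0.11, and the libraries overlapped for the first 2 of these.

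Among the effectors, Isg15, a ubiquitin-like tag, was at 18.3 and 22.4 CPM in sham and at 11.1 and 11.1 in BDL (-0.88 ± 0.17, adjusted p = 0.012). Usp18, which removes that tag and restrains the type I receptor, was at 12.01 and 12.2 against 5.45 and 5.70 CPM (-1.12 ± 0.19, adjusted p = 0.0073). Mx2, a dynamin-like GTPase of antiviral defence, showed the largest change among the targets called, from 7.65 and 10.5 to 2.48 and 2.69 CPM (-1.79 ± 0.27, adjusted p = 0.0047). Of the Ifit proteins, which bind foreign RNA, Ifit2 was at 13.5 and 15.8 against 4.90 and 6.83 CPM (-1.30 ± 0.23, adjusted p = 0.0084). Ifit3 was at 3.97 and 4.99 against 0.897 and 1.78 CPM (-1.67 ± 0.41, adjusted p = 0.027). Ifit1 (-0.98 ± 0.34, adjusted p = 0.075) and Ifit3b (-1.22 ± 0.57, adjusted p = 0.15) were not called, although their groups did not overlap. Ifit3 and Ifit3b cannot be counted apart with certainty, since 51.2% of the 50-base words of Ifit3 transcripts also stand in Ifit3b.

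Ifi44, an interferon-induced cytoplasmic protein, was at 11.9 and 7.23 against 4.21 and 4.20 CPM (-1.20 ± 0.28, adjusted p = 0.023), and Parp14, an ADP-ribosyltransferase, at 80.0 and 79.0 against 52.5 and 50.3 CPM (-0.63 ± 0.11, adjusted p = 0.0080). Parp9 (-0.49 ± 0.16, adjusted p = 0.058), Ifi35 (-0.41 ± 0.15, adjusted p = 0.076) and Xaf1 (-0.52 ± 0.24, adjusted p = 0.15) were not called. Dtx3l, the ubiquitin ligase that pairs with Parp9, differed little (-0.06 ± 0.14).

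The oligoadenylate synthetases, many of which switch on RNA decay when they meet double-stranded RNA, and the related Oasl1 gave no call and no common direction. Oasl2 stood at 13.5 and 17.1 CPM in sham and 19.0 and 22.6 in BDL (0.46 ± 0.18, adjusted p = 0.11), with the BDL libraries above the sham libraries. Oas2 had only 5 and 4 UMIs in the sham sums against 14 and 67 (1.67 ± 0.60, adjusted p = 0.080). Oasl1 (-0.35 ± 0.34), Oas1a (-0.06 ± 0.40) and Oas3 (-0.02 ± 0.47) overlapped between the groups. Oasl2 and Oas2 were called higher without BDL replicate 1 and with no filter on low counts. Oas1a shares 57.6% of its 50-base words with Oas1g and is uncertain for that reason.

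Rsad2, which makes an antiviral nucleotide, differed between the 2 BDL libraries. It stood at 9.78 and 9.97 CPM in sham, at 3.66 in BDL replicate 1 and at 10.5 in BDL replicate 2, and was not called (-0.44 ± 0.44, adjusted p = 0.49). Without BDL replicate 2 the log2 fold change was -1.43 (adjusted p = 0.00033), and without BDL replicate 1 it was 0.10 (adjusted p = 0.76).

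Of the gamma targets, Irf1, itself a transcription factor of the gamma response, had the largest change among those called. It stood at 166 and 239 CPM in sham and at 80.8 and 53.3 in BDL (-1.60 ± 0.24, adjusted p = 0.0052). Gbp7, a guanylate-binding GTPase, was at 8.43 and 14.5 against 4.90 and 5.79 CPM (-1.08 ± 0.29, adjusted p = 0.036). Gbp7 lost its call without sham replicate 2 and when the cells with the highest doublet scores were removed, whereas Irf1 kept its own in all 16 alternatives. Gbp4 was at 7.75 and 5.61 against 11.03 and 10.1 CPM (0.65 ± 0.22, adjusted p = 0.073), the only gamma target tested with a log2 fold change above 0.

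The chemokines that attract activated T cells were not called. Cxcl10 was at 90.6 and 139.7 CPM in sham and 85.9 and 87.5 in BDL (-0.41 ± 0.20, adjusted p = 0.17). The Cxcl10 value rested on the sham libraries: it was -0.68 (adjusted p = 0.046) without sham replicate 1 and -0.04 (adjusted p = 0.89) without sham replicate 2. Cxcl9 was at 0.552 to 1.99 CPM (-0.83 ± 0.54, adjusted p = 0.29). The parts of the immunoproteasome, Psmb8 (-0.04 ± 0.14) and Psmb9 (-0.03 ± 0.22), overlapped between the groups, as did Gbp3 (-0.46 ± 0.48). Tap1, which loads peptides for display to T cells (-0.36 ± 0.20, adjusted p = 0.22), and Gbp2 (-0.84 ± 0.35, adjusted p = 0.12) were not called.

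**Figure D1:**
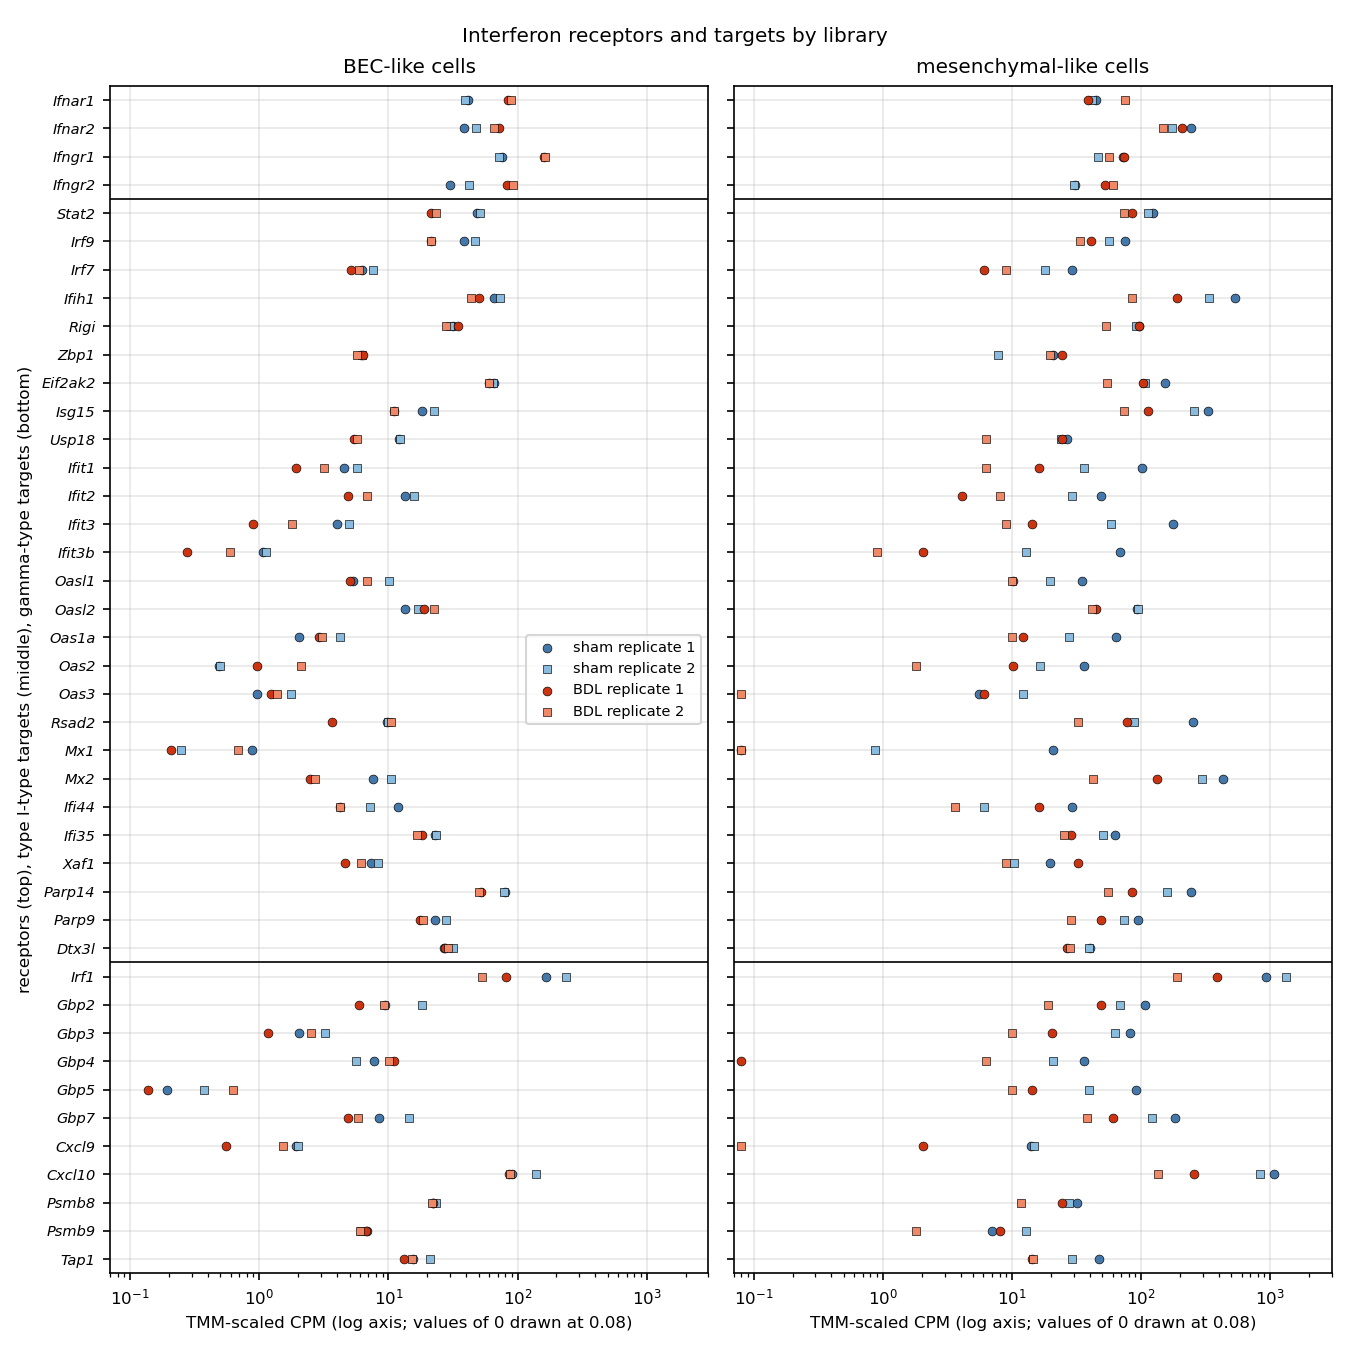
TMM-scaled CPM on a log axis for each of the 42 genes in BEC-like cells (left) and mesenchymal-like cells (right), 1 point per library, with values of 0 drawn at 0.08. In BEC-like cells the receptors of the BDL libraries lie to the right of sham, as Ifngr1 does at 159.7 and 163 against 75.8 and 71.7, and in mesenchymal-like cells most targets of the BDL libraries lie to the left.

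The groups did not overlap for any of the 16 genes called in BEC-like cells, which the call on the same libraries makes likely by itself. Over all genes tested, called or not, 68.9% did not overlap. Leaving out sham replicate 2 brought the lower calls from 12 to 5 (Stat2, Irf9, Mx2, Ifi44 and Irf1), and leaving out sham replicate 1 brought them to 8, with Ifi44, Ifih1, Ifit3, Parp14 and Usp18 lost and Cxcl10 added. Without BDL replicate 2 there were 16, with Gbp2, Ifit1, Parp9 and Rsad2 added, and Gbp4 was then called higher. Calls over all genes also fell when either sham library was left out, so the fewer calls there are not particular to these genes. The median of the gamma targets was -0.09 without sham replicate 2 and -0.80 without BDL replicate 2.

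RNA of other cell types in the BEC-like sums also differed between the groups. The summed level of 12 hepatocyte markers, all detected, was 1726, 1758, 429 and 426 CPM, and that of 12 mesenchymal markers, all detected, was 109, 111, 19.0 and 32.7 CPM. The mesenchymal figure equals 0.496%, 0.649%, 0.0802% and 0.117% of the level of these markers in mesenchymal-like cells. Macrophage markers were at 43.1 to 46.6 CPM in all 4 libraries, and T-cell markers at 14.0, 9.51, 6.89 and 3.07 CPM. Endothelial markers, all 12 detected, were at 50.3, 53.4, 27.0 and 15.2 CPM, with both BDL libraries below both sham libraries. Glial markers, all 4 detected, were at 4.20, 4.63, 1.77 and 2.08 CPM, and neutrophil markers, 6 of 8 detected, at 0.137 to 1.54 CPM, and in both sums the BDL libraries were below the sham libraries. Mesothelial markers, all 5 detected, were at 15.9, 27.2, 30.99 and 57.9 CPM, with 1 called higher and 1 lower. The part of these transcripts in the results was not tested.

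In mesenchymal-like cells, 16 of 39 genes tested were lower after ligation and 0 were higher. They were 10 of 25 type I targets and 6 of 10 gamma targets, and none of the 4 receptor chains was called. Over all 8786 genes tested in this class, edgeR called 4.1% lower and 2.58% higher. At an unadjusted p under 0.05 the members counted 28 lower and 1 higher (Ifngr2), and 1995 of the 8786 genes passed that limit in either direction. DESeq2 called 13 members lower and 0 higher, and of all genes 217 lower and 137 higher. The median log2 fold change was -1.40 over type I targets and -2.15 over gamma targets, against 0.01 over all genes, and 23 of 25 and 10 of 10 lay below 0.

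Cxcl10 had the smallest adjusted p among the members in this class. It stood at 1073 and 826 CPM in sham and at 256 and 134 in BDL (-2.31 ± 0.33, adjusted p = 0.0059), so that both BDL libraries were below both sham libraries. Irf1 was at 932 and 1326 against 386 and 190.1 CPM (-1.99 ± 0.35, adjusted p = 0.013). Cxcl9 was called from 10 and 17 UMIs against 1 and 0, and its pooled sham level was 22.1-fold that of BDL, with a 95% counting interval of 3.64 to 904. The guanylate-binding Gbp3, Gbp5 and Gbp7 were lower by 2.38 ± 0.40, 2.46 ± 0.50 and 1.67 ± 0.33 on the log2 scale (adjusted p = 0.011, 0.021 and 0.018). Gbp5, which was too low to test in BEC-like cells, was at 90.7 and 39.7 against 14.2 and 9.91 CPM. Gbp4 had 26 and 24 UMIs against 0 and 7 and missed the threshold (adjusted p = 0.052). It was called lower without sham replicate 2 (adjusted p = 0.033), BDL replicate 1 (0.028) or BDL replicate 2 (0.0019), but not without sham replicate 1 (0.30). Tap1 (-1.38 ± 0.42, adjusted p = 0.085), Gbp2 (-1.49 ± 0.43, adjusted p = 0.076) and Psmb8 (-0.84 ± 0.45, adjusted p = 0.31) were not called, and Psmb9 was too low to test.

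The Ifit genes showed the largest changes among the type I targets called. Ifit3 stood at 176 and 58.6 CPM in sham and at 14.2 and 9.01 in BDL (-3.38 ± 0.58, adjusted p = 0.012). Ifit1 was at 102 and 36.2 against 16.3 and 6.31 CPM (-2.75 ± 0.62, adjusted p = 0.031), and Ifit2 at 48.8 and 29.3 against 4.06 and 8.11 CPM (-2.48 ± 0.51, adjusted p = 0.021). The sham libraries were themselves well apart for these genes, sham replicate 1 being the higher in each. Ifit3b, with 49 and 15 UMIs against 1 and 1, was also called, and its pooled sham level was 26.2-fold that of BDL (95% counting interval 6.95 to 221).

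Isg15 was at 329 and 257 against 114 and 73.9 CPM (-1.67 ± 0.28, adjusted p = 0.011), and Mx2 at 431 and 296 against 132 and 42.3 CPM (-2.15 ± 0.45, adjusted p = 0.022). Ifih1 was at 534 and 336 against 189 and 84.7 CPM (-1.71 ± 0.38, adjusted p = 0.028). Oasl2, which was not called in BEC-like cells, was at 93.5 and 94.9 against 44.7 and 41.4 CPM (-1.14 ± 0.26, adjusted p = 0.034). Parp14 (-1.56 ± 0.31, adjusted p = 0.020) and Oas1a (-2.03 ± 0.52, adjusted p = 0.047) were the other type I genes called. Rsad2 was at 251 and 87.97 against 77.2 and 32.4 CPM and was not called (-1.70 ± 0.52, adjusted p = 0.090). It was called without sham replicate 2 (-2.29, adjusted p = 0.00077) or BDL replicate 1 (-2.35, adjusted p = 0.00092), and stood at -0.76 (adjusted p = 0.51) without sham replicate 1 and at -1.09 (adjusted p = 0.063) without BDL replicate 2. Stat2 (-0.58 ± 0.25, adjusted p = 0.20) and Irf9 (-0.84 ± 0.31, adjusted p = 0.15), which were called in BEC-like cells, were not called here.

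**Figure D2:**
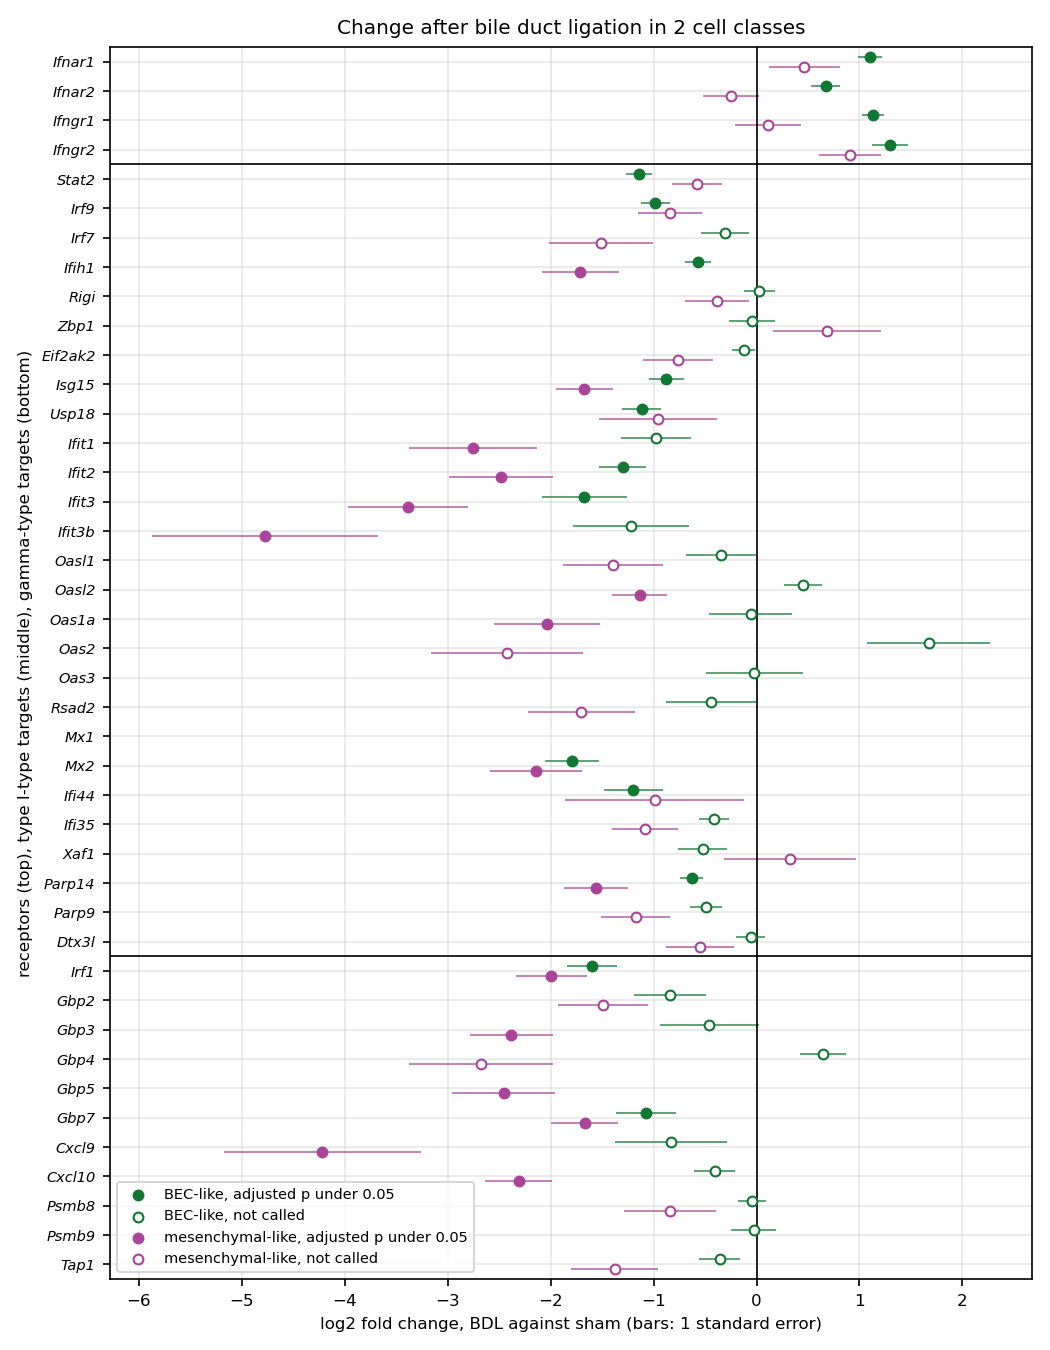
Log2 fold change of BDL against sham for each gene tested in BEC-like cells (green) and mesenchymal-like cells (purple), with bars of 1 standard error and filled points for an adjusted p under 0.05. The 4 receptors lie above 0 in BEC-like cells, and the largest changes below 0 are those of mesenchymal-like cells, down to -4.77. Ifit3 lies at -3.38 and Cxcl10 at -2.31 there.

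Of the genes called lower, 8 were shared between the classes: Ifih1, Isg15, Ifit2, Ifit3, Mx2, Parp14, Irf1 and Gbp7. They make up 66.7% of the 12 in BEC-like cells and 50% of the 16 in mesenchymal-like cells. Over all genes, 150 were lower in both classes, 7.25% of the 2070 in BEC-like cells and 41.7% of the 360 in mesenchymal-like cells. The classes come from the same mice, so these lists are not independent of each other. In mesenchymal-like cells the groups did not overlap for any of the 16, which again the call makes likely by itself. Over all genes tested in that class, called or not, 52.6% did not overlap.

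The mesenchymal-like class was itself a mixture that differed between the groups. A cluster led by collagen genes made up 43.6% and 24.3% of it in sham and 62.0% and 83.3% in BDL, and a cluster with high Lrat, a gene of vitamin A storage in stellate cells, made up the rest. The summed type I targets stood at 1371, 963, 754 and 549 CPM in the collagen-high cluster and at 5151, 2347, 2302 and 1873 CPM in the Lrat-high cluster. The gamma targets stood at 1064, 1007, 382 and 268 CPM and at 4229, 3032, 1840 and 1567 CPM. The Lrat-high cells were thus higher in every library, and within each cluster both BDL libraries were below both sham libraries in both sums. Tested alone, the collagen-high cluster gave 4 lower calls (Cxcl10, Irf1, Isg15 and Mx2) among 21 genes tested, and the Lrat-high cluster, with 27 and 22 BDL cells, gave 0 by edgeR among 29, with 6 lower and 1 higher at an unadjusted p under 0.05. Of all genes in these fits, 3.73% and 0.35% were called lower and 1.81% and 0.537% higher. At an unadjusted p under 0.05, 639 of 4285 genes passed in the Lrat-high fit. The part of the cluster mixture in the class result was not tested further. With sham replicate 1 left out, calls fell over all genes and not only over the members. Leaving out sham replicate 1 brought the lower calls of the class from 16 to 3 (Cxcl10, Ifit3 and Irf1). Without sham replicate 2, Cxcl9 and Oasl2 lost their calls and Gbp2, Gbp4, Oas2, Rsad2 and Tap1 gained one. Without BDL replicate 2, Cxcl9 and Oasl2 lost theirs and Gbp4 gained one, and without BDL replicate 1 there were 23, with Eif2ak2, Gbp2, Gbp4, Oas2, Parp9, Rsad2 and Usp18 added.

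T-cell markers in the mesenchymal-like sums were at 62.3, 50.8, 5.84 and 4.52 CPM, a sum that rested on Cd4 (33, 55, 2 and 3 UMIs), while Cd3e, Cd3d, Cd3g and Cd8a were at 0. Macrophage markers were at 16.6, 29.4, 21.4 and 19.0 CPM, with 6 of 12 at 0. Endothelial markers, all 12 detected, were at 375, 334, 691 and 778 CPM, with 2 called higher, and mesothelial markers, all 5 detected, at 91.4, 122, 19.5 and 41.6 CPM, with 1 called lower. Hepatocyte markers, all 12 detected, were at 159, 357, 156 and 124 CPM, with 1 called lower. The groups did not overlap in the endothelial, mesothelial or hepatocyte sum. The part of these transcripts in the result was not tested.

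The effect of ligation itself differed between the classes for 5 of 41 members tested, all more negative in mesenchymal-like cells, where 3.63% of all 15317 genes were called in that direction and 2.72% in the other. By the class-by-treatment term of edgeR's quasi-likelihood test, with the mouse as a block, the difference was -1.98 ± 0.32 on the log2 scale for Cxcl10 (adjusted p = 0.00028) and -3.37 ± 0.71 for Gbp4 (adjusted p = 0.0033). It was -1.61 ± 0.33 for Oasl2 (adjusted p = 0.0029), -4.15 ± 1.06 for Oas2 (adjusted p = 0.017) and -1.19 ± 0.31 for Ifih1 (adjusted p = 0.021). Oas2 rests on 5, 4, 14 and 67 UMIs in BEC-like cells and 26, 19, 5 and 2 in mesenchymal-like cells. In mesenchymal-like cells its log2 fold change was -3.71 without BDL replicate 1 and -1.29 without BDL replicate 2. That of Gbp4 ranged there from -7.45 without BDL replicate 2 to -0.91 in the Lrat-high cluster alone. The sizes of these 2 differences are thus uncertain. The median over all genes was -0.12, against -0.88 over type I and -1.36 over gamma targets. None was called higher (0, and 0 at an unadjusted p under 0.05, and 0 by DESeq2), and DESeq2 called Cxcl10 alone. Over all genes DESeq2 called 172 lower and 172 higher there. The 5 calls became 3 without sham replicate 1 (Ifih1 and Oas2 lost), 2 without BDL replicate 2 (Ifih1, Oas2 and Oasl2 lost), 9 without sham replicate 2 and 18 without BDL replicate 1, and Cxcl10 kept its call in all 16 alternatives. The receptors were not called, with Ifngr1 (-1.02 ± 0.31, adjusted p = 0.051) and Ifnar2 (-0.92 ± 0.29, adjusted p = 0.057) nearest the threshold, so a rise in BEC-like cells only was not established.

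The baseline of the targets was higher in mesenchymal-like than in BEC-like cells. Cells had been clustered without these genes, so the classes were not drawn on them. In the sham libraries 32 of 41 genes were higher in mesenchymal-like cells and 0 lower (0 also at an unadjusted p under 0.05 and by DESeq2, which called 29 higher), where 19.3% of all genes were called higher and 18.4% lower. Over all genes DESeq2 called 2422 higher and 1577 lower there. The 32 genes were 22 of 26 type I targets, 9 of 11 gamma targets and, of the receptors, Ifnar2 (2.26 ± 0.21 on the log2 scale). The difference was 5.31 ± 0.29 for Mx2, 3.83 ± 0.22 for Isg15, 4.78 ± 0.42 for Gbp3, 3.05 ± 0.24 for Cxcl10 and 2.47 ± 0.19 for Irf1. Zbp1, Ifi44, Xaf1, Dtx3l, Psmb8, Psmb9, Ifnar1, Ifngr1 and Ifngr2 were not called. In the BDL libraries 21 genes were higher in mesenchymal-like cells and 2, Ifngr1 (-1.37 ± 0.22) and Ifngr2 (-0.64 ± 0.22), were lower, where 19.4% of all genes were called higher and 22.2% lower. DESeq2 split all genes differently there, with 2619 higher and 1902 lower against 2968 and 3397, and called 20 members higher and 1 lower.

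The 3 largest classes were also compared in the sum over each list, expressed as CPM of the class total. Type I targets in BEC-like cells stood at 560 and 546 CPM in sham and at 379 and 388 in BDL. In mesenchymal-like cells they stood at 3188 and 1879 against 1198 and 721 CPM, and in endothelial-like cells at 2288 and 2079 against 1568 and 519 CPM. Mesenchymal-like and endothelial-like cells thus overlapped in this sum and both lay above BEC-like cells in every library. Gamma targets were highest in endothelial-like cells, at 3680 and 4006 against 1792 and 961 CPM, followed by mesenchymal-like cells at 2585 and 2347 against 800.4 and 437 CPM and BEC-like cells at 349.7 and 451 against 230.0 and 212 CPM. The sham libraries lay above the BDL libraries in all 3 classes and both lists. Endothelial-like cells numbered 40, 122, 19 and 34, and hepatocyte-like cells and a mixed immune cluster had too few cells to order.

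**Figure D3:**
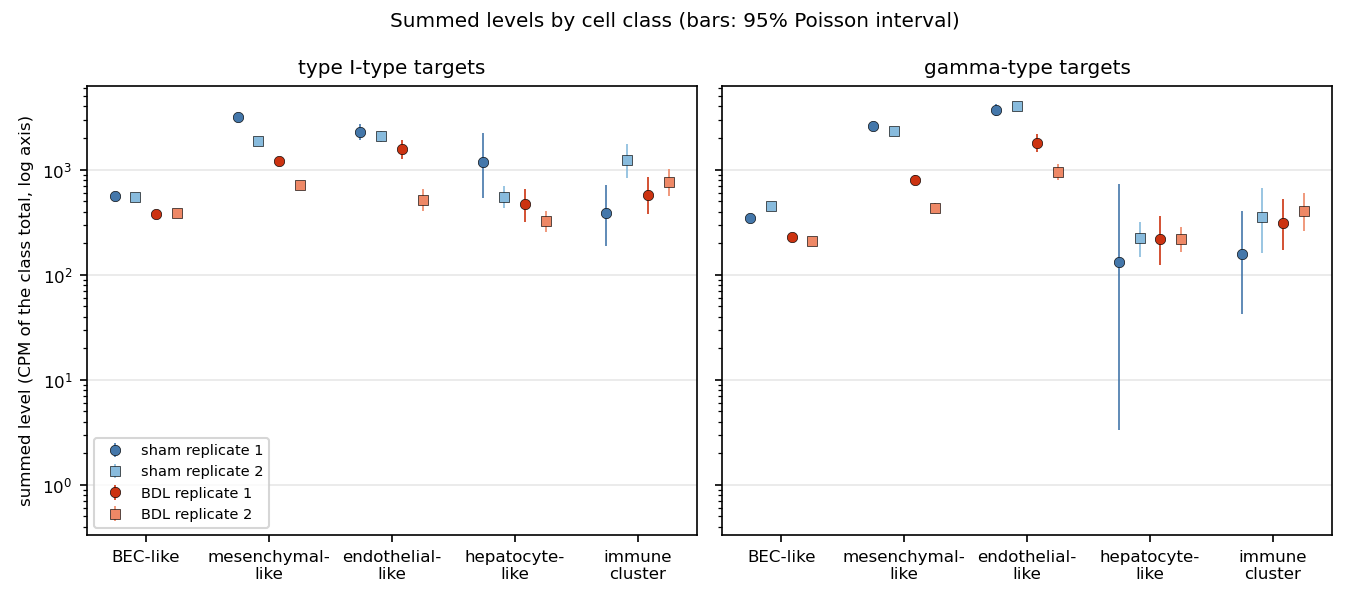
Summed level of the type I targets (left) and gamma targets (right) in CPM of the class total on a log axis, by cell class, with 1 point per library and 95% Poisson intervals that cover counting error only. Mesenchymal-like and endothelial-like cells lie above BEC-like cells in every library, and the sham points lie above the BDL points in these 3 classes.

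The rest of the pathway was followed in 98 further genes. In BEC-like cells 77 were tested, of which 20 were lower (26.0%) and 16 higher (20.8%), where 12.9% and 14.2% of all genes tested were. Among 21 kinases, adaptors and factors 5 were lower and 6 higher. Socs3, a feedback inhibitor of cytokine receptors, stood at 42.3 and 53.0 CPM in sham and at 8.83 and 9.64 in BDL (-2.36 ± 0.17, adjusted p = 0.00040). Ikbke, a kinase upstream of interferon production, went from 34.6 and 41.0 to 129.7 and 140.0 CPM (1.84 ± 0.13, adjusted p = 0.00041). Socs1, the inhibitor of gamma signalling (-1.41 ± 0.27, adjusted p = 0.011), and Irf8 (-1.01 ± 0.25, adjusted p = 0.028) were lower.

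Further gamma targets gave 9 lower and 3 higher calls among 26 tested. The immunity-related GTPases Irgm1 and Iigp1 were lower by 2.62 ± 0.23 and 2.89 ± 0.28 on the log2 scale (adjusted p = 0.00076 and 0.0010). Iigp1 stood at 48.8 and 62.8 CPM in sham and at 5.24 and 9.39 in BDL, without overlap. Casp4, which binds bacterial lipopolysaccharide, was higher (0.93 ± 0.14, adjusted p = 0.0046). Further type I targets gave 6 lower and 7 higher calls among 30, with Slfn2 higher (2.64 ± 0.41, adjusted p = 0.0056) from 6 and 4 to 45 and 119 UMIs.

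In mesenchymal-like cells 72 of the 98 were tested, of which 19 were lower (26.4%) and 0 higher by edgeR, where 4.1% and 2.58% of all genes tested were. The lower calls were 12 of 25 further gamma targets, 5 of 30 further type I targets and 2 of 17 factors, among them Irf8 (-1.65 ± 0.25, adjusted p = 0.0073). Igtp was at 123 and 125 against 18.3 and 21.6 CPM (-2.60 ± 0.29, adjusted p = 0.0029), and Gbp6 at 149 and 117 against 24.4 and 17.1 CPM (-2.73 ± 0.32, adjusted p = 0.0031). Iigp1 was at 2380.1 and 1991 against 567 and 274 CPM (-2.39 ± 0.35, adjusted p = 0.0067). Socs1 (-0.86 ± 0.46, adjusted p = 0.31) was not called in this class.

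Single cells showed how the level was spread. Each BEC-like cell was thinned to 1000 UMIs, which left out 76 and 104 shallower cells of the sham libraries, and cells with a UMI in 3 or more type I targets were counted. They were 66 of 2539 cells (2.60%, exact 95% interval 2.02 to 3.30) and 57 of 2488 (2.29%, 1.74 to 2.96) in sham, and 26 of 1972 (1.32%, 0.863 to 1.93) and 44 of 3839 (1.15%, 0.834 to 1.54) in BDL. The share was lower by 1.21 percentage points in BDL, and both BDL libraries were below both sham libraries (exact permutation test, two-sided, p = 0.33, the smallest that 2 against 2 can give). Without thinning, the shares were 23.6%, 18.6%, 36.1% and 37.2% and the difference turned to 15.6 points in the other direction. At 500 UMIs per cell, which left out 0 cells, the shares were 0.497%, 0.309%, 0.152% and 0.365%, the groups overlapped and the difference was -0.14 points (exact permutation p = 0.67). BEC-like cells of the BDL libraries had a median of 7130 and 7873 UMIs, against 3304 and 2765 in sham. The same shares of thinned mesenchymal-like cells were 39.6%, 24.9%, 12.7% and 6.06%, and without thinning they were 68.6%, 54.2%, 66.2% and 53.0%, with the groups overlapping.

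At the upper end this order was lost. With 4 or more genes in thinned cells the shares were 0.630%, 0.362%, 0.355% and 0.443%, and the groups overlapped. With 6 or more there were 1, 0, 2 and 9 cells. Among whole cells, those with 10 or more type I targets detected, a limit chosen after the values were seen, numbered 5, 4, 10 and 34 (0.191%, 0.154%, 0.507% and 0.886% of BEC-like cells), in libraries whose depth per cell differed by group. The top 1% of BEC-like cells by type I UMIs held 4.97%, 4.74%, 6.12% and 12.8% of these UMIs, and the single highest cell held 34, 38, 43 and 201.

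**Figure D4:**
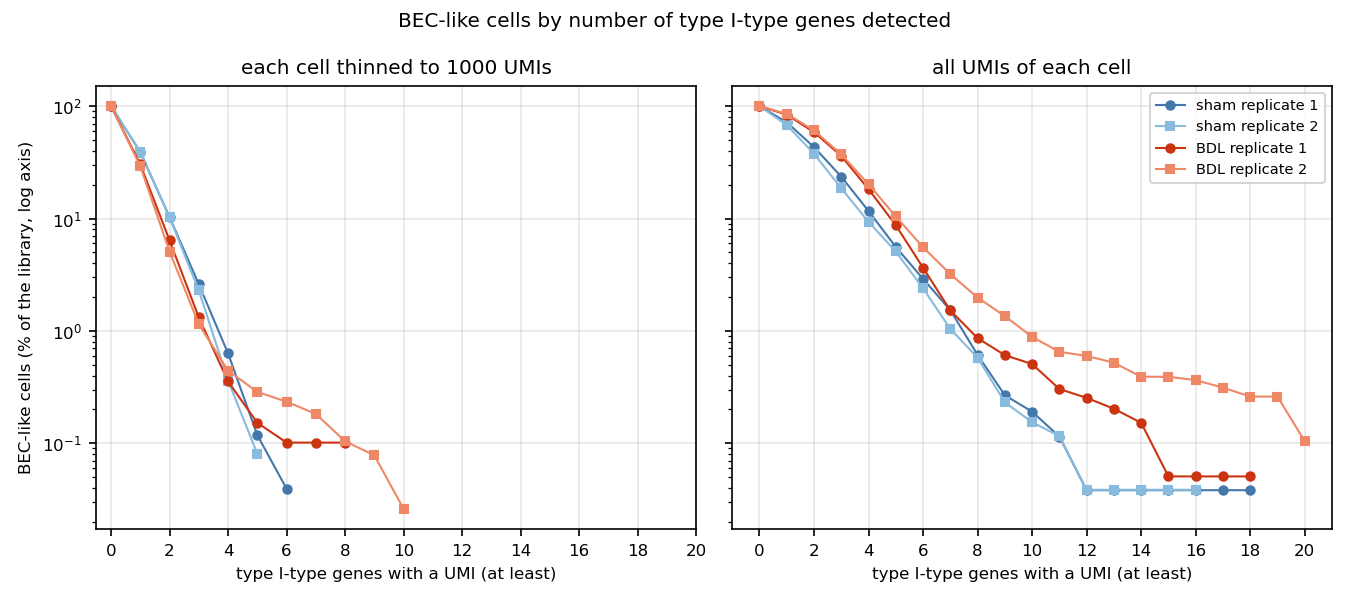
Percentage of BEC-like cells (log axis) with at least the given number of type I targets detected, for cells thinned to 1000 UMIs (left) and whole cells (right), 1 line per library. In thinned cells the sham lines lie above the BDL lines at 2 and 3 genes and the order is lost from 4 genes on, and in whole cells BDL replicate 2 extends furthest to the right.

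The 34 cells of BDL replicate 2 are described here as 1 library, with no test. They held 12.3% of its type I UMIs. Rsad2, one of the genes used in choosing them, stood at 716 CPM in them and at 3.20 CPM in the other 3805 BEC-like cells, and they held 232 of its 334 UMIs (69.5%). They held 71.9% of the Ifit3 UMIs, 67.3% of those of Ifit1, 84.2% of those of Ifit3b and 27.8% of those of Isg15. The gamma targets, which the choice did not use, were higher in these cells for 11 of 11 genes, with a median ratio of 15.2. Many of them answer to both interferons, so they are not independent of the choice, and the same ratio over all genes is not given here. Over the 30 further gamma targets of the pathway lists, 26 of the 29 with a UMI were higher, with a median ratio of 2.22. In the cells chosen the same way in the other libraries, 8 of 11 gamma targets were higher in sham replicate 1 (5 cells, median ratio 6.46), 4 of 11 in sham replicate 2 (4 cells, 0.697) and 9 of 11 in BDL replicate 1 (10 cells, 4.34), with 3, 5 and 2 of the 11 genes at 0 UMIs. In the 34 cells of BDL replicate 2, Cxcl10 stood at 744 against 80.1 CPM and Gbp2 at 136 against 7.84 CPM, while Irf1 was closer, at 86.4 against 52.5 CPM. The receptors were at ratios of 0.803 to 1.17, and none of the 12 ligands had a UMI in these cells.

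The same cells carried the biliary markers at the level of the rest: Krt19 was at 497 against 609.6 CPM, Epcam at 868 against 1033 CPM and Spp1 at 5313 against 5027 CPM. Of the immune transcripts examined, Lyz2 had 0 UMIs and Ptprc had 1. Their median depth was 9302 against 7871 UMIs. Their median doublet score was 0.0527 against 0.0617, from doublet calling that is taken not to have worked here, so the scores do not tell whether these cells are doublets. They came from 7 clusters, all 8 sublibraries and 29 wells of the second barcoding round. When the interferon genes were kept in the clustering, 17 of the 34 fell into 1 cluster of 37 BEC-like cells, of which 1, 0, 6 and 30 came from the 4 libraries. With the top 1% of cells of each library removed, Rsad2 had a log2 fold change of -1.67 between the groups (adjusted p = 0.0046) and Ifit3 one of -3.30, and the lower calls in BEC-like cells went from 12 to 16, with Ifit1, Ifit3b, Parp9 and Rsad2 added. The removed cells were ranked by the type I targets themselves and held more of their UMIs in BDL replicate 2 than in the other libraries, so the removal by itself lowers the BDL level more, and these values are a description of where the UMIs lay.

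**Figure D5:**
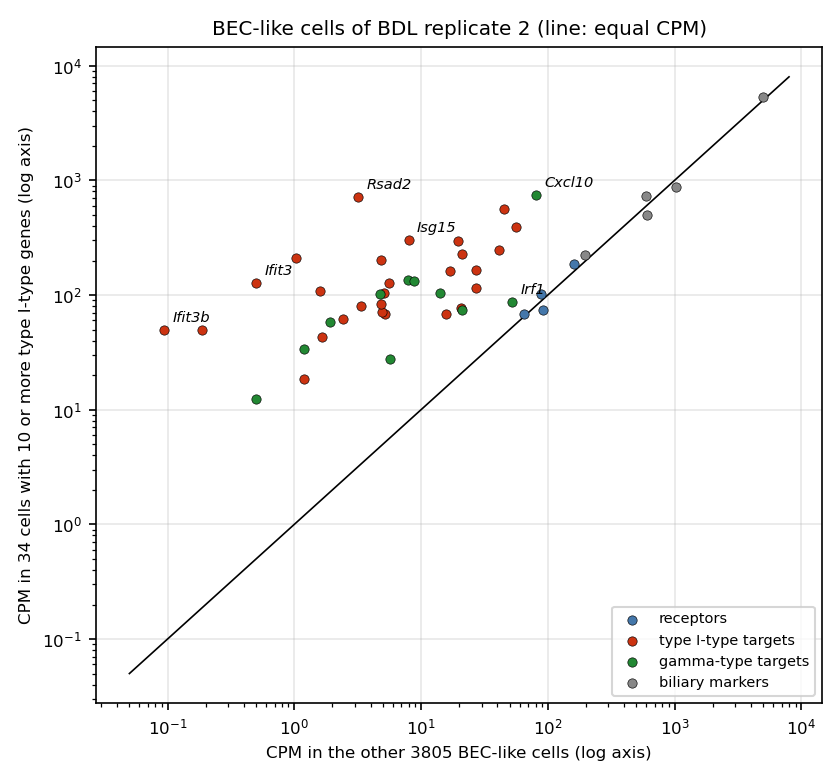
CPM on log axes in the 34 BEC-like cells of BDL replicate 2 with 10 or more type I targets detected (vertical) against the other 3805 BEC-like cells of that library (horizontal), 1 point per gene, with a line of equal CPM. The type I targets, which chose the cells, and the gamma targets lie above the line, with Rsad2 at 716 against 3.20, and the receptors and biliary markers lie close to it.

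The clusters of BEC-like cells had been drawn without these genes. Over the 4 to 7 clusters of at least 100 cells in each library, the summed type I targets ranged from 531 to 663 CPM and from 489.8 to 729.8 CPM in the sham libraries, and from 305 to 528 CPM and from 244 to 512 CPM in the BDL libraries, with overlap between the groups. The receptors ranged from 161 to 261 and 148 to 260.3 CPM in sham and from 311 to 489.6 and 290.1 to 476 CPM in BDL, without overlap between the groups. The cluster medians of type I targets were 549 and 549 CPM in sham and 388 and 379.9 CPM in BDL. Nearly every BEC-like cluster consisted of cells of 1 group, so these are ranges over different clusters and were not tested between the groups.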

How the data were processed

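The authors deposited counts: whole-number UMIs per gene and cell for each library, against a gene table named mm39refseq per the file headers and the build GRCm39 per the submitters' processing notes. Transcripts were primed with random hexamers and oligo(dT), per the labels' protocols. The aligner, the counter and the treatment of doublets are not given in the sources used here.

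The 42 genes, the pathway lists and the tests were chosen with earlier results of these data known. Of 12211 cells, those under 500 UMIs (7) or over 20% mitochondrial UMIs (11) were left out. Scrublet called 12 of the rest (0.0984%), a share under 0.5%, so doublet calling is taken not to have worked; these 12 were removed. The 12181 cells were clustered without the interferon lists (scanpy 1.11.5, leidenalg 0.10.2; 2000 variable genes, 30 components, 20 neighbours, resolution 1, 19 clusters). Classes were named from fixed markers, by a scoring rule set after the clusters were seen: at least 3 markers, each in 5% of the cluster's cells and over 2-fold above the other cells. A cluster of 50 immune cells was left without a type name.

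UMIs were summed per library and class and tested by edgeR's quasi-likelihood test (edgeR 4.0.16, limma 3.58.1, R 4.3.3; TMM scaling, edgeR's expression filter) with Benjamini-Hochberg adjustment over all genes. The class contrasts and the difference between classes came from 1 fit of both classes with the mouse as a block. DESeq2 1.42.0 was an alternative. Others were another scaling or filter, thinned sums, other clusterings and cell filters, sublibraries apart and each library left out. The fits were tested on simulated data first. Exact permutation and Clopper-Pearson methods were from SciPy 1.17.1. Each library was taken as 1 mouse from its own name in the labels, which do not say so outright, so p-values measure the spread between 2 libraries a group, which may be technical. Intervals and limits for counts of 0 cover counting error only. All members may be named; of other pathway genes, those with the 3 smallest adjusted p in each direction and class, and Socs1, Irf8, Ifnb1 and Ifng; 1 further gene of that rule is not reported here. Gene identity was checked by 50-base words shared with transcripts of other genes in GENCODE M21, and 5 members shared over 10%: Ifit3, Ifit3b, Oas1a, Gbp4 and Gbp7.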

Additional observations from a re-analysis of the deposited data

Results flagged for a closer look

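The effect of ligation differed between mesenchymal-like and BEC-like cells, by the class-by-treatment term of edgeR's quasi-likelihood test, for 5 genes. Values are log2 differences, mesenchymal-like minus BEC-like. For Cxcl10 the difference was -1.983, with an adjusted p of up to 0.018 over 16 alternatives. For Oasl2 it was -1.607, with an adjusted p of up to 0.081. For Gbp4 it was -3.369, with an adjusted p of up to 0.053 and 0 UMIs in the mesenchymal-like cells of BDL replicate 1. For Ifih1 it was -1.190, with an adjusted p of up to 0.39, and for Oas2 -4.148, with an adjusted p of up to 0.45. The shares of the collagen-high and Lrat-high clusters in the mesenchymal-like class moved with the group (83.3% and 62.0% collagen-high in BDL, 43.6% and 24.3% in sham), and their part in these differences was not tested.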

How the results depend on the processing

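No paired analysis was possible because replicate numbers here only follow the order of the samples and tie no sham mouse to a BDL mouse. In BEC-like cells the 12 lower calls ranged from 5 to 16 when 1 library was left out, and the 4 higher calls from 3 to 6. With no filter on low counts there were 7 higher calls, with Oasl2, Oas2 and Gbp4 added. In mesenchymal-like cells the 16 lower calls ranged from 3 to 23 with 1 library left out. They were 8 in the cells of sublibraries 1 to 4 and 8 in those of sublibraries 5 to 8. In the collagen-high cluster alone there were 4, and in the Lrat-high cluster alone 0, alternatives added after seeing the data. The 5 calls of a difference between classes ranged from 2 to 18 with 1 library left out. They were 1 by DESeq2, 3 with at least 10 CPM in 2 libraries, 9 with cells kept by their own markers and 13 with the highest doublet scores removed. With 1 library left out, the 32 higher genes of the sham class comparison ranged from 25 to 33 and the 21 of the BDL comparison from 14 to 21, and the other alternatives gave 29 to 32 and 17 to 22.

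The median log2 fold change of type I targets in BEC-like cells was -0.36 with no filter on low counts, -0.69 in sublibraries 5 to 8 and -0.64 with the top 1% of cells removed, and -0.61 to -0.41 with 1 library left out. That of the gamma targets ranged from -0.80 to -0.09. In mesenchymal-like cells the type I median was -0.77 in the Lrat-high cluster and -1.97 to -1.06 with 1 library left out. The gamma median was -1.60 in the collagen-high cluster, -0.97 in the Lrat-high cluster and -2.43 to -1.67 with 1 library left out. The difference in the share of BEC-like cells with 3 or more type I targets turned to 15.6 percentage points without thinning, and was -1.37 to -1.06 with 1 library left out. A group reduced to 1 library in this way borrows its spread from the group that kept 2. Calls over all genes fell in both classes when either sham library was left out.

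Where tested, 7 of the 16 genes called in BEC-like cells (Ifnar1, Ifngr1, Ifngr2, Irf1, Irf9, Mx2 and Stat2) and 3 of the 16 in mesenchymal-like cells (Cxcl10, Ifit3 and Irf1) kept their call under every alternative set at the outset, and none of the called genes changed sign. Limits are the 2 mice a group, a depth per cell that differed with the group, and 71 and 132 mesenchymal-like cells in the BDL libraries.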

Other observations

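The smaller classes were summed but not tested. In hepatocyte-like cells (2, 32, 7 and 33 cells in sham replicates 1 and 2 and BDL replicates 1 and 2) the type I targets stood at 1179.6, 556, 469 and 324 CPM of the class total. The gamma targets there stood at 131, 222, 219.7 and 220.2 CPM. In the immune cluster (6, 11, 12 and 21 cells) the type I targets stood at 391, 1227, 579 and 758 CPM and the gamma targets at 157, 356, 312 and 403 CPM, and the groups overlapped in both. In BEC-like cells, 2 members were too low to test: Mx1 had 9, 2, 3 and 22 UMIs and Gbp5 had 2, 3, 2 and 20.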
